A study of Rattus norvegicus with 108 samples.

Results

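Heat shock and chaperone genes were followed through single-cell profiles of the rat dentate gyrus, the hippocampal field that holds the granule cells. The 7 symbols were Dnajb1, Hspa8, Hsph1, Hsp90aa1, Hspd1, Hspe1 and Hspa5, and all 7 had a row among the 19127 genes of the dorsal and ventral count tables. The symbols were listed with earlier results of these cells in view, and which values led to the list is not recorded. The adjusted p-values given for them therefore place each gene within a fit over all genes and are not independent evidence of its direction.

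Male Long-Evans rats, 2 months old at the start, received fluoxetine (the FT group, 18 mg per kg in the drinking water) or water alone (the Sham group) for 6 weeks. Dorsal (dorDG) and ventral (venDG) dentate gyrus were punched from fresh brains, each replicate was pooled from several animals, and libraries were made with a 10x Genomics kit that reads the 3′ end of each transcript. There were 4 dorDG FT, 5 dorDG Sham, 5 venDG FT and 5 venDG Sham replicates, spread over 27 reactions. In 8 replicates, 4 of each region, the labels named a pair of 10x reactions, called here first and second by the order of their names, and the other 11 replicates had 1 reaction. The labels describe nuclei, the study's methods describe whole cells and nuclei, and neither says which reaction held which. Replicates were pools, so p-values measure the spread between pools and not between animals.

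The tables held 1289 dorDG and 2058 venDG cells after 170 venDG columns with a second barcode suffix were left out. Each replicate held between 220162 and 1523537 UMIs (unique molecular identifiers, each counting 1 captured transcript), and 9 of 3338 distinct barcodes occurred in more than 1 reaction. The paired reactions stood apart from each other. Cytosolic ribosomal protein genes took 5.09% to 5.98% of UMIs in the first reactions and 0.640% to 1.53% in the second. Cells with under 2% of UMIs in these genes, called ribosome-poor here, made up 10.3% of cells in the first reactions, 90.8% in the second and 26.8% in the unpaired ones. Levels are given as UMIs per 10000 UMIs. In sums over cells, fewer cells of a type and less RNA per cell cannot be told apart.

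Heat shock proteins are molecular chaperones, which bind unfolded proteins and help them to fold or pass them on for degradation. Cells make more of the inducible members under heat or other stress through heat shock factor 1 (HSF1), which binds heat shock elements in promoters, while misfolding inside the endoplasmic reticulum acts through a promoter element of its own. In the cytosol, HSP40 proteins such as Dnajb1 deliver clients to HSP70 proteins such as Hspa8, Hsph1 (an HSP110 protein) exchanges their nucleotide, and Hsp90aa1 matures kinases and steroid receptors. Hspd1 and Hspe1 form the chaperonin of the mitochondrial matrix, and Hspa5 is the HSP70 of the endoplasmic reticulum.

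The promoters are shown because genes of these families are known to be induced through short DNA elements, whose letters can be looked for in them. RefSeq promoters of the rat assembly GRCr8 matched 6 of the 7 symbols, all but Hsp90aa1. Each sequence covers the 250 bases before the start of transcription, 5′ to 3′ on the gene's strand. Capitals mark the fixed letters of heat shock elements, of CCAAT boxes and of the endoplasmic reticulum stress element.
Hspe1: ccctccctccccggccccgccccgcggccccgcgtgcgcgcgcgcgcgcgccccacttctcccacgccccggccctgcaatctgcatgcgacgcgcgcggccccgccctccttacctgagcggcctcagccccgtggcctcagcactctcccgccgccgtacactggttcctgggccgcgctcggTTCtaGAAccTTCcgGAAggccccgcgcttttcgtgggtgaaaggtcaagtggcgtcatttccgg
Hspa8: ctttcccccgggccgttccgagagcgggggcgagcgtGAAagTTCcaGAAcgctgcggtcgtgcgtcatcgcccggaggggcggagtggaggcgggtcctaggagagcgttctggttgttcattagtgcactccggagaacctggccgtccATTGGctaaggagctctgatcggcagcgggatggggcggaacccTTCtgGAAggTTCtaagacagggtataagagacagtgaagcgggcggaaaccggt
Hsph1: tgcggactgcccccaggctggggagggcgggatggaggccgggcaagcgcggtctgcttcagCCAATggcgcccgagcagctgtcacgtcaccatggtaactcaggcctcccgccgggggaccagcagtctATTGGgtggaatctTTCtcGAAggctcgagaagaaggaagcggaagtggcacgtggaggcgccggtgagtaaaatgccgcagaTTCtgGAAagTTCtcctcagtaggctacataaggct
Dnajb1: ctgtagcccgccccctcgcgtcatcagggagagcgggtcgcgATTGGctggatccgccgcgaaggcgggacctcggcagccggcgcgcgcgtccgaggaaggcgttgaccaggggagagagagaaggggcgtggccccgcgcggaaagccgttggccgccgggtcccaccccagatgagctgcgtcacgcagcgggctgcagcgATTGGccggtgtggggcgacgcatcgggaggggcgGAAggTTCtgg
Hspa5: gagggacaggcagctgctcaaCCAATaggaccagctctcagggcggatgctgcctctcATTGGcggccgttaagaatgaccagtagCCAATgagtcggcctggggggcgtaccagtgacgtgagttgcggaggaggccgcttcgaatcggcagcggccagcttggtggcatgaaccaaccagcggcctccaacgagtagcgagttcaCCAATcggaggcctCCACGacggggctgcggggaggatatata

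These windows lie at chr9:64084077-64084326 (plus strand) for Hspe1, chr8:50080264-50080513 (plus) for Hspa8, chr12:10427118-10427367 (plus) for Hsph1, chr19:41431142-41431391 (minus) for Dnajb1 and chr3:38452766-38453015 (plus) for Hspa5. Hspd1 is transcribed away from Hspe1, and its window, chr9:64084038-64084287 on the minus strand, shares 211 bases with that of Hspe1. A heat shock element of 3 alternating units, GAANNTTCNNGAA or TTCNNGAANNTTC on either strand, was in the windows of Hspe1, Hspd1, Hspa8 and Hsph1 and in 0.663% of all 33469 promoters. In Hspe1 a pair of overlapping matches ran from -65 to -48 relative to the start, and the same bases are the matches of Hspd1. The 2-unit form, GAANNTTC or TTCNNGAA, which the 3-unit form contains, was in 13.5% of promoters. It was the one heat shock element match of Dnajb1, at -11 to -4, and it also lay at -105 to -98 in Hsph1. All motifs were searched on both strands, and a match is a description of the letters, not evidence of binding. The endoplasmic reticulum stress element, a CCAAT followed after 9 bases by CCACG, was in 22 promoters (0.0657%), and of the listed genes it was found in Hspa5, at -43 to -25. CCAAT or ATTGG, which that element contains, was in 34.0% of promoters and in the windows of Hspa5 (4 matches), Dnajb1 (2), Hsph1 (2) and Hspa8 (1). TATAAA on either strand was in 12.9% of promoters and in none of the 6 windows.

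The first comparison set the second reaction of each of 8 replicates against its first. Of the 7 genes, 6 passed the filter on low values, and these 6 were lower in the second reaction of 8 of 8 replicates, with no overlap between reactions. Of all 4378 genes tested, 25.3% were lower in 8 of 8 replicates and 20.1% had every first reaction above every second one. Dnajb1 was 2.93 at the lowest, 3.83 at the median and 4.46 at the highest in the first reactions and 0.0583, 0.142 and 0.471 in the second, a median ratio of 26.9 and a log2 fold change of -4.98 (SE 0.285). Dnajb1 left 35 UMIs in all 8 second reactions together, against 1978 in the first. Hsp90aa1 had the narrowest relative spread of the 6, at 17.1, 19.8 and 21.0 in the first reactions and 1.22, 1.90 and 2.18 in the second (log2 fold change -3.87, SE 0.222). Hsph1 spanned 2.70, 3.68 and 6.37 against 0.234, 0.608 and 0.989 (-3.33, SE 0.273).

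The mitochondrial pair separated from each other, although they share a promoter region. Hspe1 was 2.72, 3.54 and 4.83 in the first reactions and 0.157, 0.268 and 0.399 in the second (log2 fold change -4.12, SE 0.211). Hspd1 was 0.687, 1.12 and 1.69 against 0.151, 0.382 and 0.577 (-2.13, SE 0.244). The median first-to-second ratio was thus 11.4 for Hspe1 and 3.12 for Hspd1, and the difference between these ratios was not tested. For all 6 tested genes the fitted fold change was further from no change than the ratio of the printed levels. The fit rescales each reaction (TMM scaling), while the printed levels do not, and for Hspd1 the ratio of mean levels was 3.09. Hspa5 was 2.73, 4.03 and 5.69 against 0.352, 0.539 and 0.953 (-3.26, SE 0.216). The highest adjusted p of the 6 was 1.61e-06 for Hspd1 (edgeR's quasi-likelihood test with the replicate as a block, Benjamini-Hochberg adjustment).

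Hspa8, the constitutive HSP70, did not pass the filter of 0.5 UMIs per 10000. It had 155 UMIs in the first reactions, at 0.326 ± 0.183 per 10000 (SD, n = 8), and 7 UMIs in the second, where 4 of 8 reactions were at 0. Without the filter its log2 fold change was -3.73 (SE 0.459). Reads that match near-identical copies of a gene may be lost or split in counting, and whether this touches Hspa8 was not tested.

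**Figure D1:**
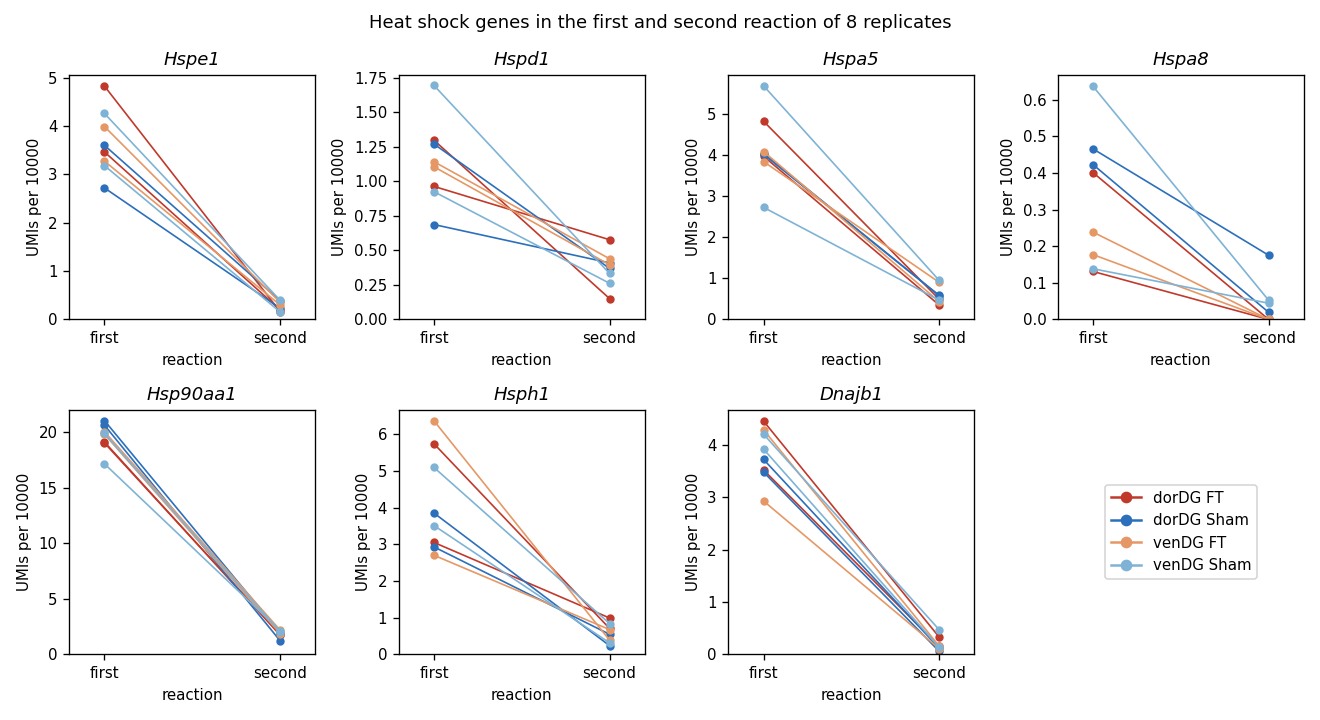
Level of each listed gene (y axis, UMIs per 10000) in the first and second reaction of 8 replicates, joined by a line and coloured by group. For the 6 genes other than Hspa8, every first reaction lies above every second one, and Dnajb1 goes from a median of 3.83 to 0.142.

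Over the same genes, 39.9% were called lower in the second reaction (an adjusted p up to 0.2 with an absolute log2 fold change from 0.32 up), and the median over all genes was 0.13, against -3.60 over the 6 listed genes. The lower level in the second reactions was shared by most of the chaperone lists. The lists held 103 other genes, called other chaperone genes here although they include heat shock factors and stress transcription factors. Of these, 49 were tested, of which 42 were lower, 3 were higher and 4 were not called, with a median log2 fold change of -1.58. The lowest were the small heat shock protein Cryab (-5.82), the stress transcription factors Ddit3 (-4.29) and Atf4 (-3.45), the small heat shock protein Hspb1 (-3.97) and the HSP40 gene Dnaja1 (-3.46), each lower in 8 of 8 replicates. The 3 higher genes were all of the DNAJ family: Dnajc6, which uncoats clathrin vesicles (1.21), Dnajc1 (0.66) and Dnajc18 (0.44). All 10 tested endoplasmic reticulum genes (median -2.49) and all 11 chaperonin and prefoldin genes (median -1.39) were lower, and Bag3, a co-chaperone that HSF1 induces, was lower by -2.75. The strictly inducible Hspa1a and Hspa1b had 34 and 25 UMIs in the first reactions and 0 in the second, below the 3-count floor of 0.0132 per 10000.

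**Figure D2:**
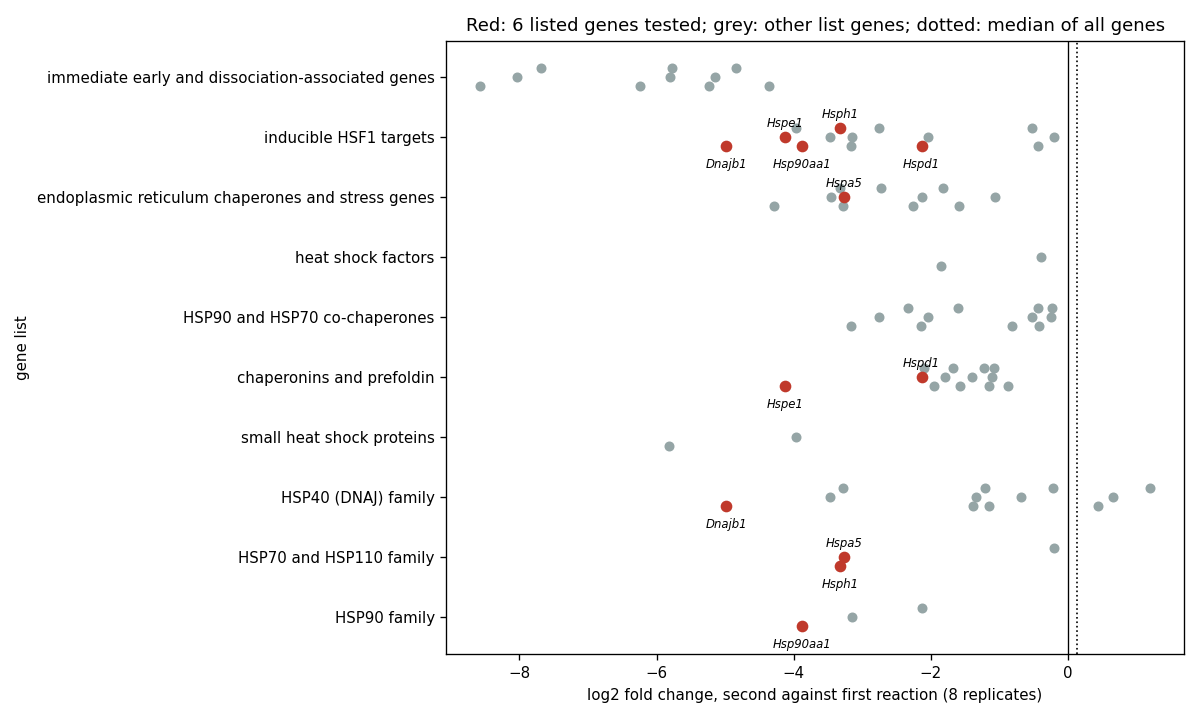
Log2 fold change of the second against the first reaction (x axis) for each tested gene, by chaperone list (y axis, with some genes in 2 lists), with the 6 listed genes in red. The dotted line is the median of all genes, 0.13, and the listed genes lie between -4.98 and -2.13.

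Other measures moved with the same contrast. The summed level of 14 immediate early and dissociation-associated genes was 54.0 in the first reactions (range 33.3 to 74.2) and 1.42 in the second (0.453 to 3.64), and all 10 of them that were tested were lower, Fos by -8.58. The 4 neuron markers summed to 5.11 in the first reactions (2.39 to 6.74) and 20.5 in the second (12.7 to 31.2), and the 4 microglia markers to 21.1 (10.3 to 28.1) and 6.47 (0.752 to 21.5). The part of cell makeup in the reaction difference was not tested. Within types, Dnajb1 in Oligodend1 had 25 UMIs among 239399 in first reactions and 0 among 82829 in second ones (a floor of 3 counts is 0.362 per 10000), and in Endothelial cells 85 among 210248 and 1 among 114981. In all ribosome-rich cells, pooled Dnajb1 was 3.98 in the first reactions and 0.351 in the second, Hsp90aa1 20.3 and 4.21, and Hspe1 3.91 and 0.842. In ribosome-poor cells the same genes were 1.03 and 0.127, 9.38 and 1.45, and 1.09 and 0.234. Each of these 3 genes was thus lower in the second reaction in both classes of cell, and lower in ribosome-poor cells in both reactions, with 69 ribosome-rich cells behind the second-reaction values. Hsph1 was lower in the second reactions in both classes, but there its level was alike in ribosome-rich (0.5262) and ribosome-poor cells (0.529).

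The difference between the classes was tested inside a cell type for AstroSub1 (6 replicates) and Oligodend1 (4 replicates), the dorDG types that had 5 cells of both classes in enough replicates. In AstroSub1 astrocytes Hspe1 was 4.69 ± 1.88 in ribosome-rich and 0.593 ± 1.18 in ribosome-poor cells (SD, n = 6; log2 fold change -3.46, SE 0.646), Hspa5 3.94 ± 1.35 and 0.601 ± 0.514 (-3.00, SE 0.638), and Hsp90aa1 8.07 ± 2.07 and 2.69 ± 2.78 (-2.15, SE 0.449). These and Hspd1, which had 23 UMIs in ribosome-rich and 2 in ribosome-poor cells, were lower in 6 of 6 replicates and called, beside 24% of all genes called lower and 12.6% lower in 6 of 6 replicates. Dnajb1 (5 UMIs in each class) and Hsph1 (25 and 11) were not called. The other chaperone genes went the same way, with 18 of 49 lower and none higher. Ddit3 (-3.17), the endoplasmic reticulum lectins Canx and Calr (-2.16 each), P4hb (-1.87) and St13 (-1.86) were lower in 6 of 6 replicates. Hspb1 was called with a mean of 1.07 in ribosome-rich cells and 0 in ribosome-poor ones. It was lower in only 3 of 6 replicates, with no difference in the others, and it passed the filter through the ribosome-rich cells.

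In Oligodend1 oligodendrocytes Hsp90aa1 was 15.5 ± 4.41 in ribosome-rich and 2.95 ± 1.28 in ribosome-poor cells (SD, n = 4, log2 fold change -2.94, SE 0.524). It was lower in 4 of 4 replicates, as were 23% of all genes tested in this type. Hspe1 had 61 UMIs in ribosome-rich cells and 0 among 105635 UMIs of ribosome-poor cells, which makes it at least 7.90-fold lower (a floor of 3 counts over the group). Hsph1 (-1.51, SE 0.774) and Hspd1 (-1.43, SE 0.806) were also called, with 5 UMIs each in the ribosome-poor cells. Hsph1 was no longer called without dorDG FT replicate 2 or Sham replicate 5, and Hspd1 without FT replicate 2 or Sham replicate 1. Hspa5 was not called (-0.96, SE 0.717), though it was without FT replicate 2 (-1.68), and Dnajb1, with 20 and 1 UMIs, was not tested. Without FT replicate 2, Sham replicate 1 or Sham replicate 5, Dnajb1 passed the filter and was called. It averaged 0.855 in ribosome-rich and 0.143 in ribosome-poor cells, so it entered the test through the ribosome-rich cells. No direction is read from that call. These counts stand beside 29.8% of all genes called lower and 29 of 46 other chaperone genes. The lowest of those were the stress transcription factor Ddit3 (-4.43), Cryab (-4.33), Ptges3 (-3.71), Cdc37 (-3.35) and Fkbp4 (-3.09). The mitochondrial DNAJ gene Dnaja3 was higher (1.81). The median of all genes was 0.25 here, and -0.04 with the other scaling (RLE), so the size of these fold changes depends on the scaling.

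Across the 12 cell types the authors named in dorDG, Dnajb1, Hsp90aa1 and Hsph1 were highest in Oligodend2 or in the cells named Mossy, and Hspa8, Hspd1, Hspe1 and Hspa5 in one of the microglia types. The types were clustered from these same genes, so their levels are a description with no test. Apart from BergGlia, the glial and endothelial labels went with their markers. BergGlia had no marker list of its own, and its astrocyte sum of 26.3 lay between AstroSub1 (63.5) and OPC (3.60). Its name is used as a label only. The cells named Mossy had a neuron marker sum of 2.99 beside an endothelial sum of 29.4 and a mural sum of 16.3, and the inhibitory markers summed to 0.488 in InhibNeuron, 0.545 in ExcitNeuron and 0.748 in Granule. Prox1, a granule cell marker, was highest in InhibNeuron and the inhibitory marker Slc32a1 in ExcitNeuron, so the neuronal names are used here as labels only. Dnajb1 was 16.8 ± 6.78 in Oligodend2 (SD, n = 7), from 7.996 to 26.4. The next type, Mossy, was at 3.91 ± 3.07, a gap larger than either SD. Microglia2 (2.98 ± 1.84), Endothelial (2.87 ± 1.58) and Microglia1 (2.14 ± 0.897) followed within their spread. Microglia1 stood above Oligodend1 (1.05 ± 0.876) by more than the SD. From Oligodend1 down through OPC (0.726), AstroSub1 (0.464), Granule (0.267), InhibNeuron (0.205), BergGlia (0.157) and ExcitNeuron (0.140), no neighbours differed beyond their spread.

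Both oligodendrocyte types carried the myelin markers at like levels (summed 399 in Oligodend1 and 352 in Oligodend2), so the gap in Dnajb1 lay between types with the same lineage markers. Oligodend2 held 53 first-reaction cells and 1 second-reaction cell, and Oligodend1 held 42 and 55. In first-reaction cells alone, Dnajb1 had 520 UMIs among 400391 in Oligodend2 and 25 among 239399 in Oligodend1. The immediate early and dissociation-associated sum was also highest in Oligodend2 (111, from 69.8 to 185), followed by Mossy (80.6), and lowest in ExcitNeuron (2.31). Ribosome-poor cells were 12.6% of Oligodend2, 11.1% of Mossy and 7.78% of Endothelial, and 79.6% to 80% of InhibNeuron, Granule and ExcitNeuron.

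Hsp90aa1 was 28.6 ± 3.37 in Oligodend2 and 24.8 ± 6.52 in Mossy, and it fell by steps within the spread through Microglia1 (21.8), Endothelial (20.3), Microglia2 (20.01) and Oligodend1 (13.996) to OPC (11.5 ± 2.09). The gap from OPC to Granule (6.05 ± 2.71) exceeded the SD, and below it lay AstroSub1 (5.50), BergGlia (5.32), ExcitNeuron (4.14) and InhibNeuron (3.64). This order mixes reactions, as ExcitNeuron held 6 first-reaction and 29 second-reaction cells, Granule 13 and 63, and InhibNeuron 13 and 53. In first-reaction cells alone, pooled Hsp90aa1 was 13.9 in OPC, 13.4 in ExcitNeuron, 9.67 in Granule and 7.60 in InhibNeuron. It was 6.43 in AstroSub1 and 5.56 in BergGlia. The part of the reaction mix in the type order was not tested. Hsph1 formed an upper group of Mossy (6.92 ± 4.73), Endothelial (6.74 ± 4.18) and Oligodend2 (5.92 ± 2.21), set off from Microglia1 (3.24 ± 1.81) by more than the SD, and it was lowest in Granule (0.703). Hspa8 lay between 0.527 in Microglia1 and 0.0245 in ExcitNeuron, with no gap between neighbours above the SD.

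Hspa5 had a different order. It was 9.42 ± 1.97 in Microglia1, from 6.24 to 12.5, above Microglia2 (5.27 ± 1.96) by more than the SD, followed by Mossy (4.32), Endothelial (2.94), OPC (2.55), AstroSub1 (2.47), Oligodend2 (2.08), BergGlia (1.62), ExcitNeuron (1.37), Granule (1.33), Oligodend1 (1.13) and InhibNeuron (1.03). Hspe1 went from 4.96 ± 2.28 in Microglia2 and 4.70 ± 3.15 in BergGlia to 0.975 ± 0.947 in ExcitNeuron, and Hspd1 from 1.53 ± 0.894 in Microglia1 to 0.520 ± 0.387 in InhibNeuron, with no neighbours apart by more than the SD for either gene. The fold from the highest to the lowest type was 120 for Dnajb1, 7.87 for Hsp90aa1, 9.17 for Hspa5, 5.09 for Hspe1 and 2.94 for Hspd1. These folds mix first and second reactions. In first-reaction cells alone, pooled Dnajb1 was 13.0 in Oligodend2 and 0.600 in ExcitNeuron, the latter on 4 UMIs. Hspa5 there was 10.2 in Microglia1, 4.35 in ExcitNeuron, 1.94 in InhibNeuron, 1.13 in Oligodend1 and 0.989 in Granule.

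**Figure D3:**
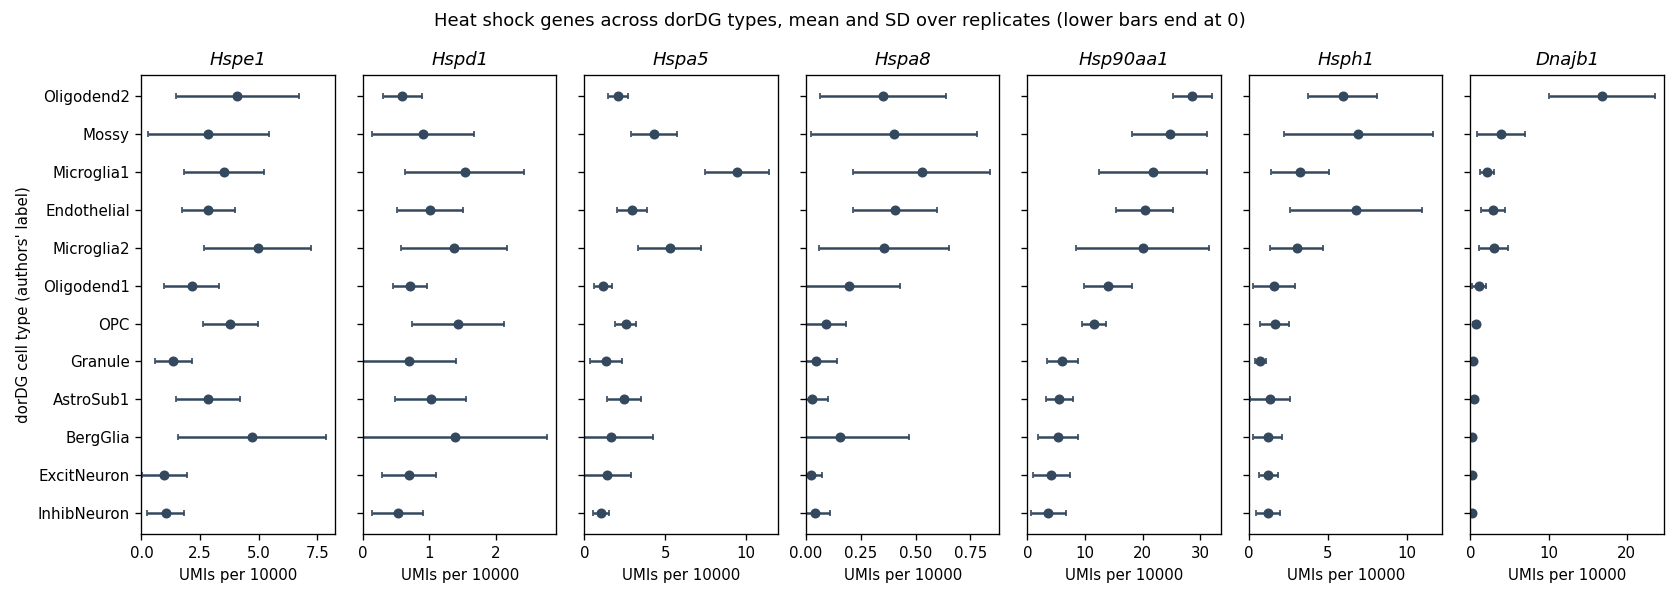
Level of each listed gene (x axis, UMIs per 10000) in the 12 dorDG cell types (y axis), as mean and SD over the replicates that held 5 or more such cells. Dnajb1 stands out in Oligodend2 at 16.8, and Hspa5 in Microglia1 at 9.42.

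Over the 12 types, log2 levels of the cytosolic genes went together: Pearson's r was 0.91 for Dnajb1 and Hsp90aa1, 0.89 for Hsp90aa1 and Hsph1 and 0.89 for Dnajb1 and Hsph1. It was 0.78 for Hspe1 and Hspd1 and 0.15 for Hspd1 and Dnajb1. The types share libraries and differ in depth and reaction, so these are descriptions. Hspa8 lay under the filter on low values. Among 4226 genes, the most alike in pattern were Egr1 and Ddit3 for Dnajb1 (0.95 each), Atf4 (0.95) and Cdkn1a (0.94) for Hsph1, Hsp90ab1 (0.97) and AABR06082873.1 (0.96) for Hsp90aa1, the class I antigen genes RT1-CE3 and RT1-CE5 for Hspa5 (0.93 each), a gene model without a symbol (0.98) and Rpl36al.1 (0.92) for Hspe1, Swap70 (0.92) and Slc39a1 (0.88) for Hspd1, and AABR06064171.1 (0.96) and Rpl12-ps1 (0.95) for Hspa8.

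Fluoxetine was then compared with Sham within dorDG. Dnajb1 was 3.79, 2.77, 6.02 and 5.22 in the 4 FT replicates (numbers 1, 2, 4 and 5, in this order for every gene) and 1.89, 2.66, 1.79, 1.30 and 2.02 in the 5 Sham replicates. Every FT value lay above every Sham value, the nearest being 2.77 and 2.66, as for 4.12% of all genes, and the log2 fold change was 1.27 (SE 0.309; adjusted p = 0.155, edgeR). Hsph1 was 2.71, 4.61, 5.33 and 4.09 in FT and 1.82, 2.78, 2.14, 2.14 and 1.87 in Sham. The lowest FT replicate fell just under the highest Sham replicate, and the log2 fold change was 1.03 (SE 0.271; edgeR adjusted p = 0.155).

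For the mitochondrial pair and Hspa5 the groups overlapped. Hspe1 was 4.07, 2.73, 4.15 and 2.38 in FT and 2.11, 1.99, 1.22, 2.73 and 2.31 in Sham (log2 fold change 0.77, SE 0.282; edgeR adjusted p = 0.168). Hspd1 was 1.10 ± 0.290 (SD, n = 4) and 0.764 ± 0.228 (n = 5), a log2 fold change of 0.61 with an edgeR adjusted p of 0.185. Hspa5 was 3.59 ± 0.396 and 2.54 ± 0.589, a log2 fold change of 0.57 with an edgeR adjusted p of 0.188. Hsp90aa1 was 16.3, 15.1, 19.3 and 17.3 in FT and 11.6, 15.4, 11.3, 13.3 and 11.5 in Sham, and it was not called (log2 fold change 0.50, SE 0.259; edgeR adjusted p = 0.218). Hspa8 was 0.254 ± 0.126 and 0.236 ± 0.0856 and did not pass the filter.

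Of the 6 listed genes tested, 5 were called higher in FT, in a contrast that called 12.4% of all 4274 genes higher. Nothing is read from that count, since the list was drawn up with these data known. With the replicate number as a block, 0 of all genes and 0 of the 6 were called (Dnajb1 1.22 and Hsph1 0.9965, each with an edgeR adjusted p of 0.216). Replicates 1 and 2 had paired reactions in every group and the others did not, so the number goes with how a replicate was split. No listed gene reached an adjusted p of 0.05. None of the 6 was called without FT replicate 4, FT replicate 5, Sham replicate 1, Sham replicate 3 or Sham replicate 5, and 2 were called without FT replicate 1, 3 without FT replicate 2, 6 without Sham replicate 2 and 5 without Sham replicate 4.

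Several measures of cell makeup moved with treatment, and their part in the difference was not tested beyond the fits given here. Ribosome-poor cells made up 14.5% to 42.1% of the FT replicates and 31.9% to 72% of the Sham replicates, and the ribosomal share of UMIs was 4.86% to 5.98% in FT and 2.22% to 4.53% in Sham, with no overlap. Neuron markers summed to 7.03 in FT (4.59 to 9.28) and 14.9 in Sham (6.48 to 25.5), and the immediate early and dissociation-associated genes to 49.5 (39.9 to 58.2) and 30.1 (22.6 to 52.5). With ribosome-rich cells alone, none of the 6 genes was called, and the log2 fold changes were 0.54 for Dnajb1, 0.47 for Hsph1, 0.20 for Hspe1, 0.13 for Hspd1, 0.05 for Hspa5 and -0.16 for Hsp90aa1. With the ribosomal share as a covariate none was called either (Dnajb1 0.88, Hsph1 0.70, Hspd1 -0.16). In ribosome-poor cells alone none was called, at 1.23 for Hsp90aa1, 1.11 for Hspe1, 0.95 for Hsph1 and 0.90 for Hspa5, while Dnajb1 and Hspd1 were too low to test there.

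The replicates with 1 reaction and those with a pair gave different values. In dorDG first reactions Dnajb1 averaged 3.99 in FT and 3.61 in Sham, in second reactions 0.240 and 0.0876, and in unpaired reactions 5.62 and 1.70. Hsp90aa1 was lower in FT than in Sham in first reactions (19.1 and 20.8) and higher in unpaired ones (18.3 and 12.1). These are 2 or 3 replicates a group and were not tested.

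Among the other chaperone genes, 53 were tested in dorDG, of which 14 were higher in FT, 2 were lower and 37 were not called, with a median log2 fold change of 0.40 against -0.04 over all genes. Of all 4274 genes, 12.4% were called higher in FT, and more were called lower than higher. Those called with no overlap between groups were the endoplasmic reticulum protein Manf (0.75), the cytosolic chaperonin subunits Cct8 (0.74) and Cct5 (0.45), the kinase co-chaperone Cdc37 (0.64) and the HSP70 co-chaperone St13 (0.52). The lower pair were Dnajc6 (-1.23) and Dnajc18 (-0.58), both of which were also higher in the second reactions. Bag3 was higher (0.51), Hspb1 was not called (0.84), and 7 of 11 immediate early and dissociation-associated genes were higher, Fos by 0.96. Hspa1a had 13 UMIs in the FT and 6 in the Sham replicates, and Hspa1b 8 and 12.

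**Figure D4:**
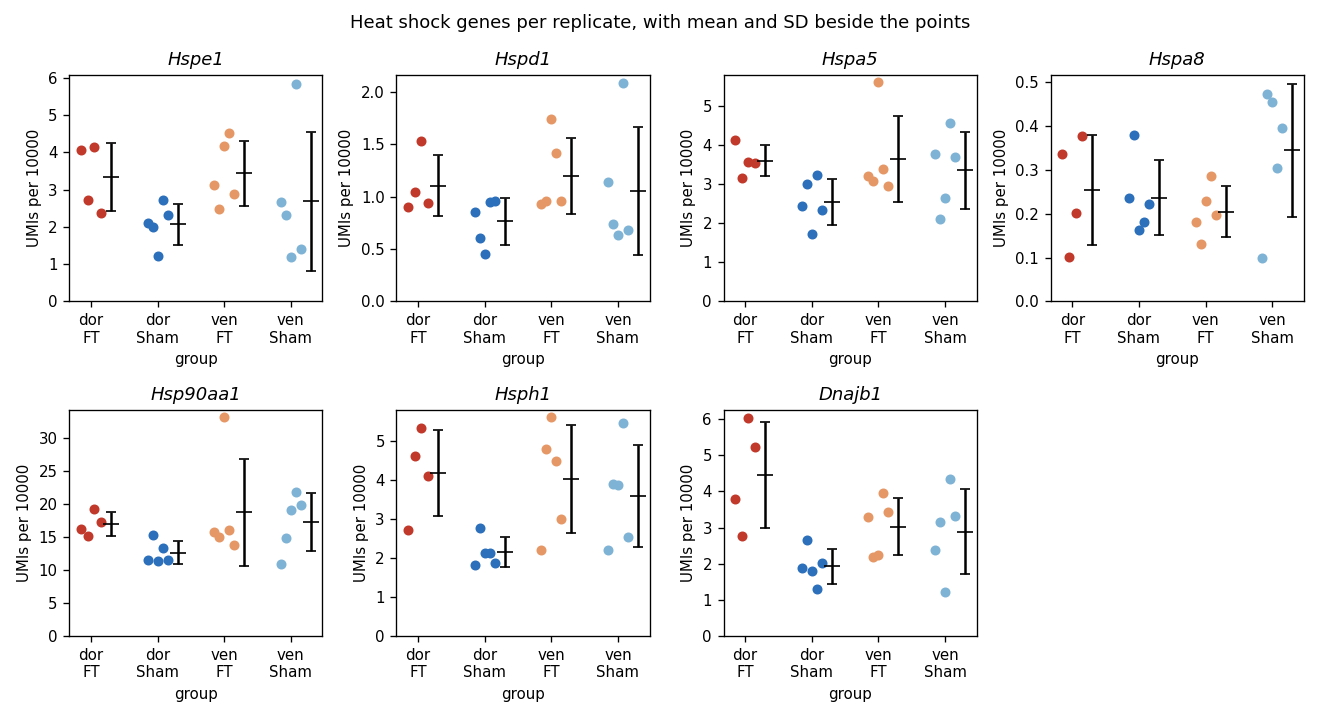
Level of each listed gene (y axis, UMIs per 10000) in each replicate of the 4 groups (x axis), with mean and SD beside the points. Dnajb1 is 2.77 to 6.02 in dorDG FT and 1.30 to 2.66 in dorDG Sham, and the 2 venDG groups overlap for all 7 genes.

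In venDG the groups overlapped for every listed gene. Dnajb1 was 3.30, 2.19, 2.25, 3.96 and 3.44 in FT and 2.37, 3.16, 1.23, 4.35 and 3.33 in Sham. Both ends of that range lay in Sham, and the log2 fold change was 0.04 (SE 0.273). The other 5 tested genes had log2 fold changes from 0.11 to 0.33, with edgeR adjusted p-values of at least 0.841. Over all 4079 genes 0 were called (0%), with 236 at an unadjusted p under 0.05 and 18 called by DESeq2, and 0 of 53 other chaperone genes were called. Neuron markers summed to 8.91 in venDG FT and 8.92 in venDG Sham, and the immediate early and dissociation-associated genes to 40.4 and 40.6. The difference between the regions in the FT effect was tested as an interaction. It was 1.19 for Dnajb1 (SE 0.422; edgeR adjusted p = 0.518), 0.83 for Hsph1 (adjusted p = 0.551) and 0.35 to 0.43 for the other 4, with 0 of 4161 genes called (0%; 394 at an unadjusted p under 0.05 and 8 by DESeq2). Without dorDG Sham replicate 2 the interaction of Dnajb1 was 1.38 and called (adjusted p = 0.133).

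The regions were compared at each treatment. In Sham, all 6 tested genes averaged lower in dorDG than in venDG, from -0.44 for Hspa5 to -0.79 for Hsph1 on the log2 scale, and none was called. Over all 4161 genes, 76 were (1.83%). With the replicate number as a block, shared by the FT and Sham replicates of both regions, Hsph1 was called (-0.73, edgeR adjusted p = 0.134), as 1 of 127 genes. The study's methods count animals per treatment group and not per region, so the regions may share animals. Whether same-numbered replicates of the regions came from the same animals or run is not stated in the sources used here. The region and interaction fits without the block treat all replicates as independent. Without dorDG Sham replicate 2 both Dnajb1 (-0.81) and Hsph1 (-0.94) were called, and without venDG Sham replicate 3 Dnajb1 was (-0.79). The ribosomal share of these Sham replicates was 2.22% to 4.53% in dorDG and 3.24% to 5.51% in venDG. Under FT the differences were -0.16 to 0.57, the highest for Dnajb1, and 0 of 4161 genes were called (0%; 163 at an unadjusted p under 0.05 and 2 by DESeq2).

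**Figure D5:**
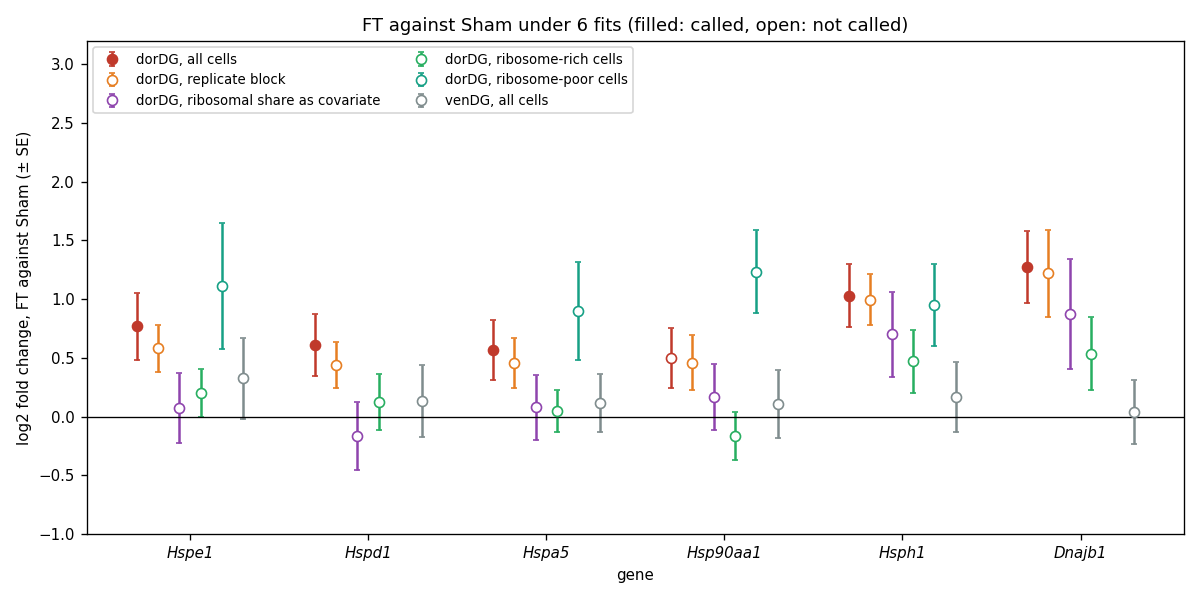
Log2 fold change of FT against Sham with its SE (y axis) for the 6 tested genes (x axis) under 5 dorDG fits and 1 venDG fit, filled where called. In dorDG Dnajb1 is 1.27 over all cells and 0.54 in ribosome-rich cells, and Dnajb1 and Hspd1 have no ribosome-poor value because they were too low to test.

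Within 9 dorDG cell types, 132 of 33662 gene and type pairs were called higher in FT (0.392%), and 129 of the 132 were in Oligodend1, where 3.49% of genes were called higher. The calls of listed genes also lay in Oligodend1, and nothing particular to them is read from that. The difference between types was not tested. Hspe1 was 3.99, 2.81, 3.82 and 2.45 in FT and 0.986, 1.10, 1.18, 1.45 and 1.52 in Sham. All FT values lay above all Sham values, as for 2.95% of genes in this type (log2 fold change 1.45, SE 0.32; edgeR adjusted p = 0.0709). Dnajb1 was 1.40, 0.729, 2.18 and 2.73 in FT and 0.575, 0.735, 0.295, 0.483 and 0.285 in Sham (1.90, SE 0.463; edgeR adjusted p = 0.0953), with counts of 1 to 19 UMIs a replicate. Hsph1 was 1.99, 0.938, 4.77 and 1.87 in FT and 0.329, 0.735, 0.886, 0.965 and 1.80 in Sham (1.39, SE 0.470; edgeR adjusted p = 0.164). The other 3 tested genes, Hsp90aa1 (0.41), Hspd1 (0.34) and Hspa5 (0.30), were not called.

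DESeq2 gave no adjusted p for these 3 genes in Oligodend1, so its calls cannot be set beside them. Ribosome-poor cells were 28.1% of the FT and 64.5% of the Sham Oligodend1 cells. In ribosome-rich Oligodend1 cells none of the 3 was called (Dnajb1 1.40, Hsph1 1.04, Hspe1 0.98, each with an edgeR adjusted p of 0.997). Of all listed genes tested in Oligodend1, none was called without FT replicate 4 or FT replicate 5, and 1 without FT replicate 1. There were 2 called without Sham replicate 1, 2 or 3, and 3 without Sham replicate 4 or 5. Without FT replicate 2 there were 4, as Hsp90aa1 (0.64) was then called besides the 3 genes. Of 50 other chaperone genes 4 were higher (Cct4 1.49, P4hb 1.40, Cryab 0.95, Hsp90ab1 0.73) and Dnajc6 was lower (-1.45). Fos was higher as well (1.82).

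In Oligodend2, where Dnajb1 was most abundant, it was 18.9, 18.9, 26.4 and 22.5 in FT and 9.87, 7.996 and 12.7 in the 3 Sham replicates with enough cells. The groups did not overlap, as for 2.49% of genes there, but the gene was not called (log2 fold change 1.10, SE 0.253; edgeR adjusted p = 0.511). It was called by DESeq2 (adjusted p = 0.155) and without Sham replicate 3 (1.25). In Endothelial cells Dnajb1 averaged 4.17 in FT and 1.83 in Sham, without a call (1.22, SE 0.344, edgeR adjusted p = 0.823). Its groups again did not overlap, as for 0.804% of genes in that type. In Mossy, the type second in Dnajb1, the gene averaged 4.07 in FT and 3.70 in Sham, with overlap and without a call (0.11, SE 0.616). FT also lay above Sham without overlap for Hsp90aa1 in Granule (8.32 and 4.25, log2 fold change 1.34, SE 0.497). The same held for Hspe1 in OPC (4.64 and 2.65, log2 fold change 0.83, SE 0.396). Neither was called, and the share of all genes without overlap was not computed for these types. In Microglia1, the type with the most Hspa5, Dnajb1 (0.10), Hspa5 (0.22) and Hsp90aa1 (-0.47) were not called.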

How the data were processed

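The deposited dorDG and venDG tables held UMI counts per gene and cell, which the authors made with Cell Ranger and filtered and annotated with Seurat 3 (genome build rn5, per the labels). The counts were summed per replicate, reaction, type or ribosomal class without rescaling. Comparisons used edgeR 4.0.16 (TMM, quasi-likelihood F-test, Benjamini-Hochberg adjustment; R 4.3.3) on genes with at least 0.5 UMIs per 10000 on average, and within types on groups of at least 3 replicates with 5 or more cells. The 170 venDG columns with a second suffix, of which 167 repeat a barcode of the same reaction, were left out. No doublet caller was run here, and how the authors treated doublets is not given in the sources used here. Calls used the study's thresholds on adjusted p and fold change. DESeq2 1.42.0 was an alternative, and the fits were tested on simulated counts. The authors' replicate numbers differ from those in the labels, which were used. Deviations of same-numbered dorDG and venDG replicates from their group means correlated at 0.196 to 0.552 in Sham and 0.0936 to 0.344 in FT. Pairs of different numbers were not computed for comparison. Replicates of a group differed beyond sampling noise (chi-square per degree of freedom at least 2.97).

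The members and gene lists were chosen with earlier results of these data known. Besides the 7 genes, those named were, in each comparison, at most 5 called genes a direction from the chaperone lists whose groups did not overlap (paired fits: all pairs alike), and Hspa1a, Hspa1b, Hspb1 and Bag3. Genes outside this rule (Fos, Dnajc6, Dnajc18, P4hb, St13, Cryab and Hsp90ab1 in some comparisons) were named after their values were seen. The 2 genes most alike were those of highest Pearson correlation of log2(UMIs per 10000 + 0.1). Alternatives were another scaling, no filter, a stricter threshold, other cells, covariates, a block and leaving out each replicate.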

Additional observations from a re-analysis of the deposited data

Results flagged for a closer look

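In 63 groups of 4 to 8 samples, 5 values stood far from the other samples of their group, and chance alone gives about 5% of groups such a value. Hsp90aa1 was 33.2 UMIs per 10000 in venDG FT replicate 3, where the other 4 replicates were 13.8 to 16.1, and Hspa5 was 5.59 in the same replicate. Hsp90aa1 was 1.22 in the second reaction of dorDG Sham replicate 1, below the other second reactions. Hspa8 was 0.175 in the second reaction of dorDG Sham replicate 2, above the others, and 0.591 in the Oligodend1 cells of dorDG Sham replicate 3, where it rested on 2 UMIs.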

How the results depend on the processing

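The reaction difference changed least: the 6 listed genes were called under every alternative and without each replicate, and leaving out a replicate gave 3616 to 3714 called genes against 3685, while no filter on low counts gave 9724. FT against Sham in dorDG changed most. From 1221 called genes it went to 0 at an adjusted p of 0.05, in ribosome-rich cells and with the ribosomal share as a covariate, to 23 in ribosome-poor cells, to 207 without the filter and to 1849 with DESeq2, and to 0 to 2022 when a replicate was left out. Of the listed genes, 5 were called there, 2 without the filter, 0 under the stricter threshold, in either class of cell and with the covariate, and 0 to 6 without a replicate; the sign of Hspd1 turned with the covariate (-0.16). In venDG 3 genes were called without the filter and 18 by DESeq2, and 0 to 0 without a replicate. The interaction gave 8 genes by DESeq2 and 0 to 335 without a replicate (0 to 1 of the listed genes).

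Between regions in Sham, 76 genes became 0 at an adjusted p of 0.05, in ribosome-rich cells and with the covariate, 45 in ribosome-poor cells, 209 by DESeq2 (with 1 listed gene) and 0 to 481 without a replicate (0 to 2 listed genes). Between regions in FT, 0 became 9 without the filter, 1 without mitochondrial and ribosomal genes, 2 by DESeq2 and with the covariate, 22 in ribosome-poor cells and 0 to 1 without a replicate. Within types, 231 became 3 at an adjusted p of 0.05, 105 without the filter, 133 without mitochondrial and ribosomal genes, 0 in ribosome-rich cells and 4 to 578 without a replicate; the 3 listed genes became 0, 1 (DESeq2, Dnajb1 in Oligodend2, with no adjusted p for the 3 in Oligodend1), 0 (ribosome-rich) and 0 to 4. For the ribosomal classes, 3958 became 2396 at an adjusted p of 0.05, 2412 by DESeq2, 1913 with at least 10 cells (4 listed genes in place of 8) and 3054 to 3922 without a replicate (8 to 8 listed genes, but not the same ones: in Oligodend1 Hsph1 and Hspd1 were lost and Dnajb1 and Hspa5 gained without some replicates). Dnajb1 was gained there because it then passed the filter on low values, through its ribosome-rich cells. The causes of the other changes were not tested.

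With the replicate number as a block, dorDG FT against Sham gave 0 genes and 0 listed genes (Dnajb1 1.22, adjusted p = 0.216), and the regions in Sham gave 127 with 1 listed gene. Same-numbered dorDG FT and Sham replicates correlated at 0.141, -0.214, 0.361 and 0.074, so not every pair deviated together, and parallel processing of same-numbered replicates is not stated for these libraries in the sources used here. The block changed no call of the listed genes in venDG, the interaction, the regions in FT or Oligodend1, and Hsp90aa1 was called higher in FT in Granule with it. Depth limits Hspa8 (7 UMIs in all second reactions), Hspa1a, Hspa1b and the ribosome-poor cells of single types. DESeq2 results with no adjusted p were left out, and types with fewer than 3 replicates a group were not fitted.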
